A study of Mus musculus with 2 samples.

Results

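The matrix and matricellular genes of tumour-associated macrophages described here are 9 genes, Thbs1, Spp1, Fn1, Vcan, Cd44, Plaur, Mmp12, Mmp14 and F13a1, taken by symbol from the 31053 genes of the count table. For each gene the UMIs (unique molecular identifiers, each standing for 1 captured RNA molecule) were summed over the cells of a class in each library and divided by all UMIs of those cells, which gives a level in CPM (UMIs per 1000000 UMIs). Live CD45+ cells were sorted from subcutaneous tumours of B16, a mouse melanoma cell line, and captured in droplets with a 3′ chemistry. The hosts were 8 weeks old, cells of several mice were pooled, and each genotype gave 1 library. Both groups carried floxed alleles of Mettl3, the catalytic subunit of the RNA m6A methyltransferase: WT mice were Mettl3 fl/fl Lyz2 +/+ without Cre, and KO mice were Mettl3 fl/fl Lyz2 cre/+, in which Cre is driven by the Lyz2 locus. Lyz2-Cre acts in monocytes and macrophages, and also in granulocytes and in some dendritic cells. With 1 library per genotype no test between WT and KO was possible, and the genotype cannot be told apart from the pool of mice or the library. Intervals below are 95% exact intervals that cover counting error only.

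The extracellular matrix is laid down by fibroblasts and, in tumours and wounds, also by infiltrating myeloid cells. Matricellular proteins such as thrombospondin and osteopontin bind matrix and cell-surface receptors and change how cells adhere and migrate, without forming the scaffold themselves. Monocytes that enter a tumour carry adhesion receptors and parts of the plasminogen activation system, and as macrophages they can secrete proteases that cut elastin, collagen and other matrix proteins.

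Each gene of the set has its own place in that system. Thbs1 (ENSMUSG00000040152, chr2:118111876-118127133, plus strand) encodes thrombospondin 1, an adhesive glycoprotein that binds CD47 and CD36 and can activate latent TGF-β. Spp1 (ENSMUSG00000029304, chr5:104435118-104441050, plus strand) encodes osteopontin, a secreted ligand of integrins and of CD44. Fn1 (ENSMUSG00000026193, chr1:71585520-71653200, minus strand) encodes fibronectin, and Vcan (ENSMUSG00000021614, chr13:89655312-89742509, minus strand) the large proteoglycan versican, which binds hyaluronan. The receptors are Cd44 (ENSMUSG00000005087, chr2:102811141-102901665, minus strand), which binds hyaluronan and osteopontin, and Plaur (ENSMUSG00000046223, chr7:24462484-24475968, plus strand), the GPI-anchored urokinase receptor that focuses plasminogen activation on the cell surface. The proteases are Mmp12 (ENSMUSG00000049723, chr9:7344381-7369499, plus strand), the macrophage metalloelastase, and Mmp14 (ENSMUSG00000000957, chr14:54431612-54445364, plus strand), a membrane-anchored collagenase that activates pro-MMP2. F13a1 (ENSMUSG00000039109, chr13:36867178-37050244, minus strand) encodes the A subunit of coagulation factor XIII, the transglutaminase that crosslinks fibrin and fibronectin. Positions are those of the whole gene, exons and introns included, in the GENCODE vM21 annotation of GRCm38, and all 9 genes are protein-coding.

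Plaur, Mmp12 and Spp1 were the members whose level differed by 0.5 or more on the log2 scale between the libraries in macrophage-like or monocyte-like cells, so the 250 bases before their annotated starts are printed here (RefSeq, GRCm38.p6, each on its gene's plus strand). Plaur is from chr7:24462233-24462482, Mmp12 from chr9:7344147-7344396 and Spp1 from chr5:104434861-104435110. Capitals mark matches on either strand to TGANTCA, the AP-1 motif, or to AGGAAGT, a core of the PU.1 motif.
Plaur: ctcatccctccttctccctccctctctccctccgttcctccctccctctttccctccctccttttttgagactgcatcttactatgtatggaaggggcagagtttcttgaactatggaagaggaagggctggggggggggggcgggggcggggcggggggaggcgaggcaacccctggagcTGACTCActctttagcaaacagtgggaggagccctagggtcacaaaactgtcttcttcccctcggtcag
Mmp12: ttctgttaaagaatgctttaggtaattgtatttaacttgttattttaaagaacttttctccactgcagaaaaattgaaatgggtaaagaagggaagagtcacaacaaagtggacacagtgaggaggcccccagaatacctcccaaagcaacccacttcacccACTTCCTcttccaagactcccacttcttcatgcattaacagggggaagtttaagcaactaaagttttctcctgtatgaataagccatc
Spp1: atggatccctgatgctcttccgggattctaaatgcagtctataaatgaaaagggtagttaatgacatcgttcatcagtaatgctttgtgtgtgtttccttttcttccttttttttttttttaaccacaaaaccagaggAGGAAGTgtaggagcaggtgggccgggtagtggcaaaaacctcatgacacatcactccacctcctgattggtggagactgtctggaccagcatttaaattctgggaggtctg
Plaur held 1 AP-1 match, starting 69 bases before the start of transcription, a motif found in 6.75% of 32851 mouse promoter stretches of the same length. Mmp12 and Spp1 each held 1 PU.1 match, at 88 and 112 bases, a motif found in 7.69% of those stretches. Windows were used for 7 of the 9 genes, all but Thbs1 and Fn1. In the other 4, Cd44, Vcan, Mmp14 and F13a1, the window at the annotated start held neither motif. The other motifs searched on both strands, not capitalised, were ACGTG, the core of the hypoxia response element, and TATAAA, the letters of the TATA box. ACGTG was found in Cd44 and Mmp14 and in 16.6% of the stretches. TATAAA was found in Spp1, starting 211 bases before the start of transcription, and in 12.4% of the stretches. A match is a description of letters in this window and was not set against any measure of binding.

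The libraries held 5895 (WT) and 8446 (KO) barcodes with 45963969 and 54052317 UMIs, and 13 barcode sequences occurred in both. After filtering, 4579 and 6665 cells were assigned to a class by marker genes that did not include the 9 genes. Macrophage-like cells numbered 1832 in WT and 2257 in KO, with a median of 8945 and 6459 UMIs per cell, and monocyte-like cells numbered 912 and 2493, with a median of 4253 and 3418. All 9 macrophage markers and all 7 monocyte markers had UMIs in their class in both libraries, and 8.24% (WT) and 13.2% (KO) of macrophage-like cells lay near the border of the gate, mostly towards monocytes. Mettl3 itself was not lower in the library labelled KO, at 9.89 CPM in WT and 10.5 in KO macrophage-like cells and at 9.22 and 11.5 in monocyte-like cells. Which part of Mettl3 the deletion removes is not given in the sources used here, so whether 3′ counts could show it was not tested. WT and KO below are therefore names of libraries, as their labels give them. Lyz2, whose locus carries Cre on 1 allele of the KO mice, read 6053 and 2704 CPM.

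Across cell classes the 9 genes fell into different patterns, and these patterns were alike in the 2 libraries for most of them. Mmp12 and Mmp14 were highest in macrophage-like cells. Fn1, Vcan and F13a1 were highest in monocyte-like cells, and Cd44 and Plaur in granulocyte-like cells. The class with the highest level was the same in WT and KO for these 7 genes. Thbs1 and Spp1 were highest in granulocyte-like cells in WT and in monocyte-like cells in KO. With cells thinned to 1000 UMIs or grouped by cluster, Spp1 was highest in macrophage-like cells in KO, and with clusters Thbs1 was highest in granulocyte-like cells in KO.

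**Figure D1:**
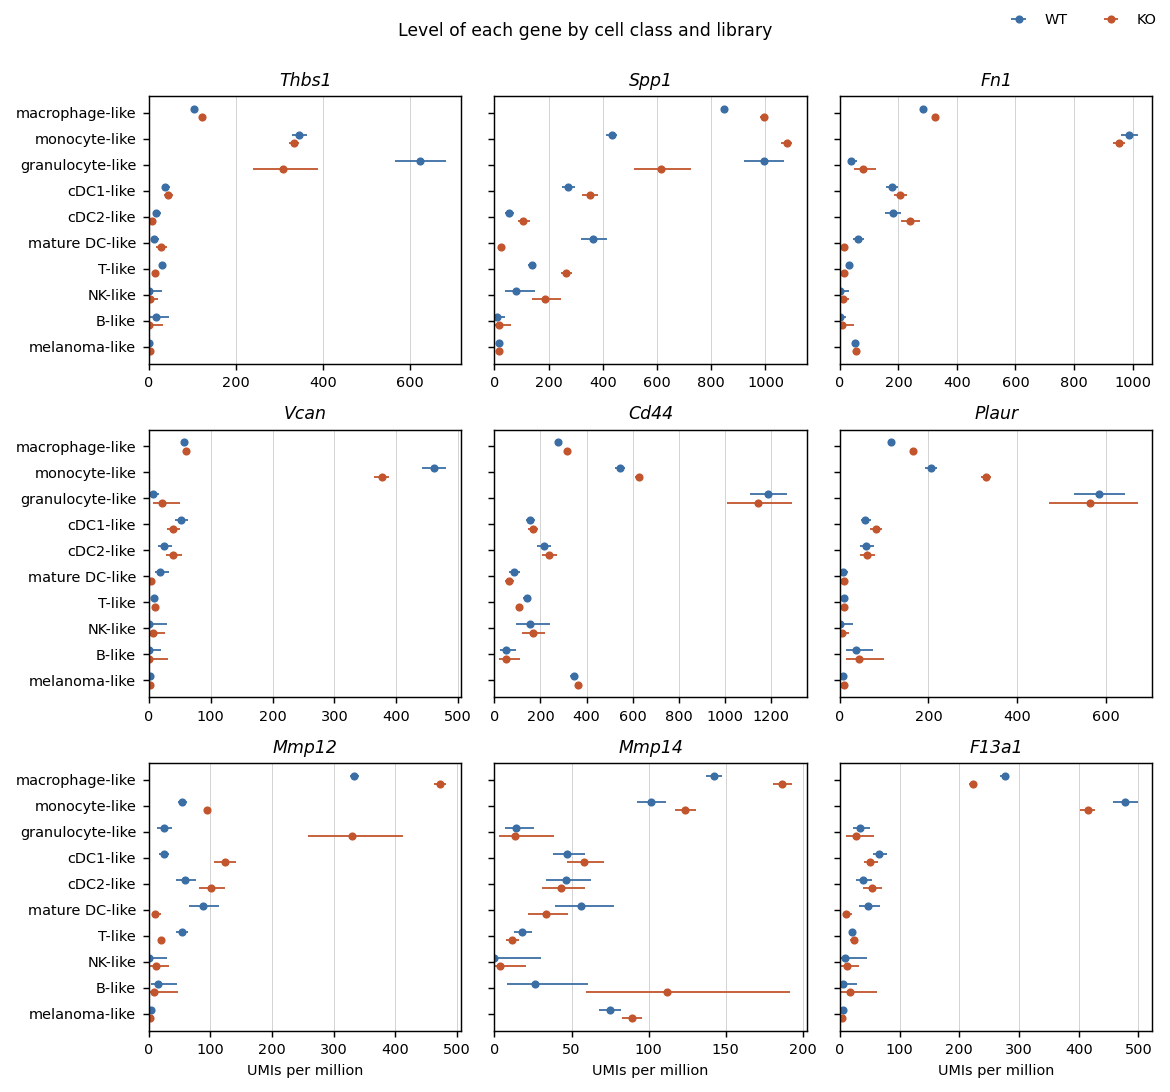
Level of each gene in CPM (x axis, linear, from 0) in 10 cell classes (y axis) for WT (blue) and KO (orange), 1 library each; points are summed counts and bars are 95% Poisson intervals. Mmp12 and Mmp14 lie furthest right in macrophage-like cells, Fn1, Vcan and F13a1 in monocyte-like cells, and Cd44 and Plaur in granulocyte-like cells; the KO granulocyte-like point of Mmp12 at 329 rests on 1 cell.

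Among the matricellular ligands, Thbs1 read 105 CPM (100 to 109, 2117 UMIs) in WT and 123 (118 to 128, 2317 UMIs) in KO macrophage-like cells. In monocyte-like cells it read 344 (328 to 362) and 333 (322 to 344), and in granulocyte-like cells 622 (566 to 683, 443 UMIs) and 307 (239 to 388, 70 UMIs). The monocyte-like level over the whole gate was about the same in both libraries, although it was lower in KO within most clusters of that gate, as given with the clusters. The granulocyte-like level was lower in KO with a log2 ratio of -1.02 (-1.40 to -0.65). In granulocyte-like cells, however, 21.8% of 2528 genes at 50 CPM or more were higher in KO by the fold and 10.5% lower. Differences past the fold were thus common there, but drops as wide as that of Thbs1 were rarer. No cell held more than 20 of the granulocyte-like Thbs1 UMIs in WT or more than 9 in KO. Granulocyte-like cells were shallow, with medians of 1324 and 1003 UMIs per cell, and numbered 498 and 210. Thbs1 was concentrated in few cells: the richest 10% of macrophage-like cells held 90.5% of its UMIs in WT and 86.8% in KO.

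Spp1 read 849 CPM (836 to 862, 17170 UMIs) in WT and 993 (979 to 1008, 18699 UMIs) in KO macrophage-like cells. In monocyte-like cells the level was 432 (413 to 452, 1970 UMIs) in WT and 1078 (1058 to 1098, 10996 UMIs) in KO. The monocyte-like difference was the widest of the 9 genes in these classes, at a log2 ratio of 1.32 (1.25 to 1.39). Without the single cell richest in Spp1 in each library the levels were 380 and 1042. Macrophage-like cells held 81.5% of all Spp1 UMIs of classified WT cells and monocyte-like cells 9.35%, against 59.4% and 34.9% in KO. In granulocyte-like cells the order was the other way, with 993 (921 to 1069) in WT and 614 (516 to 725) in KO, a class in which differences past the fold were common.

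Fn1 read 283 CPM (276 to 291, 5732 UMIs) in WT and 326 (318 to 335, 6144 UMIs) in KO macrophage-like cells, and 988 (959 to 1017) and 954 (935 to 973) in monocyte-like cells. Vcan read 56.8 (53.5 to 60.1, 1148 UMIs) and 60.3 (56.9 to 64.0, 1136 UMIs) in macrophage-like cells, and 461 (442 to 481) and 377 (365 to 389) in monocyte-like cells. Both structural matrix genes therefore stood several-fold higher in monocyte-like than in macrophage-like cells of the same library. Monocyte-like cells held 60.6% of the Vcan UMIs in WT and 74.3% in KO. Outside these classes Fn1 reached 177 and 205 in cDC1-like and 180 and 238 in cDC2-like dendritic cells, and it read 52.1 and 53.5 in melanoma-like cells, while Vcan stayed at or below 51.9 in every other class.

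Of the receptors, Cd44 read 278 CPM (271 to 285, 5622 UMIs) in WT and 316 (308 to 324, 5947 UMIs) in KO macrophage-like cells, 544 and 626 in monocyte-like cells and 1187 (1108 to 1269) and 1145 (1010 to 1292) in granulocyte-like cells. It was also the only member above 100 CPM in melanoma-like cells in both libraries, at 344 and 361. In T-like cells, which use CD44 as an activation and memory marker, it read 140 and 108.

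Plaur read 115 CPM (111 to 120, 2332 UMIs) in WT and 165 (160 to 171, 3113 UMIs) in KO macrophage-like cells. In monocyte-like cells it read 206 (193 to 219, 937 UMIs) and 330 (319 to 342, 3369 UMIs). The urokinase receptor was thus higher in the KO library in both classes. Granulocyte-like cells had 584 (529 to 643) and 566 (472 to 672), intervals that overlap. Lymphoid cells were low, at 8.23 and 9.39 in T-like and 36.4 and 43.1 in B-like cells.

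Of the proteases, Mmp12 read 334 CPM (326 to 342, 6746 UMIs) in WT and 473 (463 to 483, 8901 UMIs) in KO macrophage-like cells. In monocyte-like cells it read 54.0 (47.5 to 61.2, 246 UMIs) and 94.9 (89.0 to 101, 968 UMIs). Macrophage-like cells held a larger share of the UMIs of Mmp12 than of any other member, 92.3% of its UMIs in WT and 86.3% in KO, and the 10% of macrophage-like cells richest in it held 92.2% and 88.7% of those. Mmp14 read 142 (137 to 147, 2876 UMIs) and 187 (181 to 193, 3513 UMIs) in macrophage-like cells and 101 (92.4 to 111) and 124 (117 to 131) in monocyte-like cells. The membrane-anchored protease was spread more evenly, the richest 10% of macrophage-like cells holding 40.8% and 42.7% of its UMIs, and melanoma-like cells read 74.7 and 89.1.

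F13a1 went the other way from the rest in macrophage-like cells. It read 276 CPM (269 to 283, 5583 UMIs) in WT and 222 (216 to 229, 4187 UMIs) in KO, and 478 (458 to 498) and 415 (402 to 427) in monocyte-like cells. The crosslinking enzyme was low elsewhere, at 66.2 or less in each other class.

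In macrophage-like cells 8 of the 9 genes had a higher level in the library labelled KO, whose Mettl3 level was not lower, and F13a1 a lower one. However, Vcan and Thbs1 changed sign under some processing alternatives, to as low as -0.20 and -0.09. Fn1 ranged from 0.04 to 0.41, the latter with both classes summed. Plaur was higher by 0.52 on the log2 scale (0.44 to 0.60), Mmp12 by 0.50 (0.46 to 0.55) and Mmp14 by 0.39 (0.32 to 0.46). Thbs1 and Spp1 both stood at 0.23, Fn1 at 0.20, Cd44 at 0.18 and Vcan at 0.09 (-0.03 to 0.21), while F13a1 stood at -0.31 (-0.37 to -0.25). Plaur and Mmp12 reached the fold of 0.5, 2 of 9 genes, where 1.95% of the 2814 genes at 50 CPM or more were higher in KO by that fold and 0.426% were lower. The median of the 9 genes was 0.23 and that of all genes tested 0.01. Both calls lay at the edge of the fold: giving every cell equal weight left Plaur at 0.47 and Mmp12 at 0.49, so that neither reached it, and leaving out each library's top cell left both above it. Within clusters of the gate the directions of Mmp12 and Thbs1 differed, as given with the clusters. As 1 library per genotype was measured, these ratios compare 2 libraries and carry no estimate of the spread between mice.

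In monocyte-like cells Spp1, Plaur and Mmp12 were higher in the library labelled KO past the fold, at 1.32, 0.68 (0.58 to 0.79) and 0.81 (0.61 to 1.02). That made 3 of 9 genes, against 4.86% of 2945 genes higher and 0.645% lower. Mmp14 stood at 0.29 and Cd44 at 0.20, Thbs1 and Fn1 both at -0.05 with intervals that reached 0.04 and 0.00, F13a1 at -0.20 and Vcan at -0.29. The monocyte-like median of the 9 genes was 0.20 and that of all genes tested 0.03. Plaur and Mmp12 were the genes past the fold in both classes. For Mmp12 in monocyte-like cells the ratio fell to 0.15 with cells grouped by cluster. Its direction also differed between clusters of that gate, as given with the clusters.

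With both classes summed, which does not depend on where the border between them was drawn, 8 genes were higher in the library labelled KO and F13a1 lower. This sum holds the same macrophage-like cells and is no second measurement. The summed median of the 9 genes was 0.39 and that of all genes tested 0.02. Plaur stood at 0.76 (0.70 to 0.82), from 132 to 223 CPM, the 1 gene of 9 past the fold, where 4.13% of 2906 genes were higher and 1.2% lower. Thbs1, Spp1 and Fn1 stood between 0.40 and 0.41, Vcan at 0.39, Cd44 at 0.38, Mmp14 at 0.29, Mmp12 at 0.27 and F13a1 at -0.11. For Thbs1, Fn1, Vcan, Cd44, Plaur and F13a1 the summed ratio lay above the ratio in either class, and for Mmp12 below both. The former 6 genes had a higher level in monocyte-like than in macrophage-like cells in both libraries, and monocyte-like cells were 37.4% of classified cells in KO and 19.9% in WT.

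**Figure D2:**
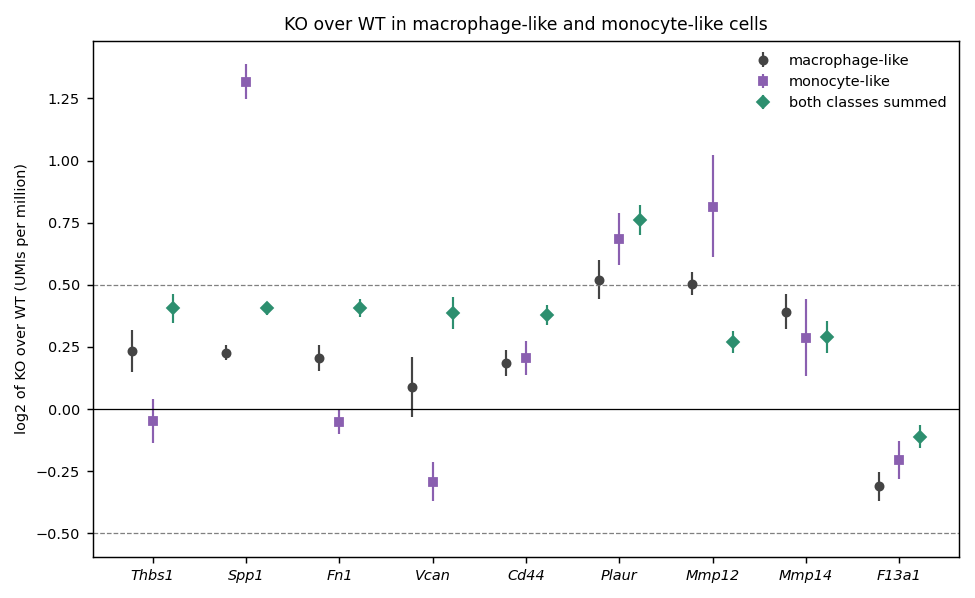
Log2 ratio of the KO over the WT level (y axis) for each gene (x axis) in macrophage-like cells (circles), monocyte-like cells (squares) and both summed (diamonds); bars are 95% counting intervals and dashed lines mark the fold of 0.5 in either direction. Spp1 at 1.32 in monocyte-like cells lies furthest from 0, Plaur lies above the upper line in all 3, and F13a1 lies below 0 in all 3.

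Signals of other cells and of depth stood beside these ratios as follows. The 7 fibroblast markers summed to 3.46 (WT) and 2.28 (KO) CPM in macrophage-like cells, with Pdgfra at 0 UMIs in both. The platelet list, looked at because platelets carry THBS1 and F13A1 protein, summed to 10.6 and 8.02 apart from Pf4, which macrophages also transcribe, and Gp1bb and Tubb1 were at 0 UMIs. The 7 granulocyte markers all had UMIs and summed to 427 in WT and 186 in KO macrophage-like cells. Immediate early and stress genes of tissue dissociation, 12 genes all with UMIs, summed to 2181 and 2338 in macrophage-like and to 4178 and 3782 in monocyte-like cells. The part of granulocyte RNA, depth and dissociation in the differences above was not tested.

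Shares of cells with at least 1 UMI depended on depth. Of the 9 genes, 3 had a higher share of macrophage-like cells in KO before thinning and 7 after each cell was thinned to 1000 UMIs, which left out 117 WT and 166 KO cells of that class. The same count over all genes is not given here, so these counts have no background and are no result about the 9 genes. Plaur was found in 45.6% and 47.9% of macrophage-like cells before thinning, and in 9.10% and 14.4% after it. Spp1 was found in 26.5% (24.5 to 28.7) and 28.9% (26.9 to 30.9) of thinned macrophage-like cells, and in 10.8% and 17.4% of thinned monocyte-like cells. Thinned T-like cells, which should lack most of these genes, showed Spp1 in 6.55% and 5.21%, Plaur in 1.59% and 0.898%, Mmp12 in 1.79% and 1.62% and Vcan in 0.794% and 0.898%, at median depths of 2284 and 1765 UMIs before thinning. Vcan was found in 6.71% and 5.88% of thinned macrophage-like cells. Mmp12 was found in 2.93% (1.92 to 4.26) of thinned WT monocyte-like cells, an interval that overlaps that of WT T-like cells (0.820 to 3.36). At this depth its detection in WT monocyte-like cells was therefore not separated from that background. In KO monocyte-like cells it was found in 4.39% (3.60 to 5.28).

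Macrophage-like cells were also split, after thinning, by the level of the complement C1q genes, which were among the markers of the gate and rise as monocytes become resident-like macrophages. Cells at or below the median of thinned C1qa, C1qb and C1qc UMIs had higher levels than C1q-high cells for 8 of the 9 genes in both libraries. Thbs1 read 182 in C1q-low and 40.1 in C1q-high cells in WT, and 207 and 46.3 in KO. Fn1 read 489 and 111 in WT and 505 and 166 in KO, and Vcan 92.8 and 26.3 in WT and 99.0 and 25.3 in KO. Mmp14 was the exception, with C1q-high over C1q-low log2 ratios of -0.16 (-0.26 to -0.05) in WT and 0.14 (0.04 to 0.24) in KO.

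Set against this split, the KO over WT ratios of some members differed by state. Mmp12 stood at 1.08, from 168 to 356 CPM, in C1q-high cells and at 0.17 (0.12 to 0.23), from 532 to 601, in C1q-low cells. Fn1 stood at 0.58 in C1q-high and 0.05 in C1q-low cells, and Mmp14 at 0.53 and 0.23. Spp1 had ratios on both sides of 0, at -0.08 in C1q-high cells, from 529 to 499, and at 0.32 in C1q-low cells, from 1236 to 1546. Plaur was higher in KO in both, at 0.58 (0.45 to 0.70) and 0.46 (0.36 to 0.57), and so were Thbs1, at 0.21 and 0.19, and Cd44, at 0.15 and 0.20. The direction of Thbs1 was not shared between clusters of the gate, as given with the clusters. F13a1 was lower in KO in both, at -0.59 in C1q-high and -0.18 in C1q-low cells. In cycling macrophage-like cells Fn1 read 103 in WT (327 cells) and 208 in KO (345 cells), a ratio of 1.01, while F13a1 stood at -0.55 and Plaur at 0.44. The Fn1 difference was smaller in macrophage-like cells of the cycling cluster, at 98.5 and 143, a ratio of 0.54 (0.36 to 0.72).

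Among monocyte-like cells, Ly6c2+ MHC-II-low cells had the highest Fn1, Cd44, Plaur, Vcan and F13a1 in both libraries. Fn1 read 1627 in WT and 1488 in KO there, against 575 and 594 in Ly6c2+ MHC-II-high cells. Among these sub-gates the Spp1 difference was widest in the same Ly6c2+ MHC-II-low cells, at 131 CPM in WT (163 cells) and 1394 in KO (566 cells), a log2 ratio of 3.41 (3.11 to 3.73). These cells sat in different clusters in the 2 libraries. The cluster led by Ace and Adgre4, with 17.1 and 27.6 CPM of Spp1, held 61.3% of them in WT and 33.2% in KO, while the macrophage clusters led by Inhba and Nos2 and by Ccl24 and Fn1 held 1.23% each in WT (2 cells each) and 8.13% and 4.95% in KO. Cells of this sub-gate in the cluster with Vcan and Chil3 read 37.8 in WT, on 7 UMIs of 42 cells, and 894 in KO, on 589 UMIs of 191 cells. The ratio of Spp1 was 0.35 in Ly6c2+ MHC-II-high cells (614 and 783), 1.32 in Ly6c2- cells (484 and 1209) and 0.84 in nonclassical cells (164 and 294). Most nonclassical Spp1 UMIs lay outside the Ace and Adgre4 cluster. It held 85.2% of nonclassical cells in WT and 63.0% in KO, but 4.08% and 12.1% of their Spp1 UMIs (2 and 30 UMIs). Plaur was higher in KO in all 4 monocyte-like sub-gates, by 0.28 to 0.80, with an interval that reached below 0 in nonclassical cells. Thbs1 in nonclassical cells read 30.1 in WT (81 cells) and 178 in KO (257 cells), a ratio of 2.57 (1.60 to 3.72), but monocyte-like cells of the cluster led by Ace and Adgre4, genes of nonclassical monocytes, went the other way, from 122 (329 cells) to 83.1 (608 cells), a ratio of -0.56 (-0.89 to -0.22). Mmp12 had 0 UMIs in nonclassical cells in WT.

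**Figure D3:**
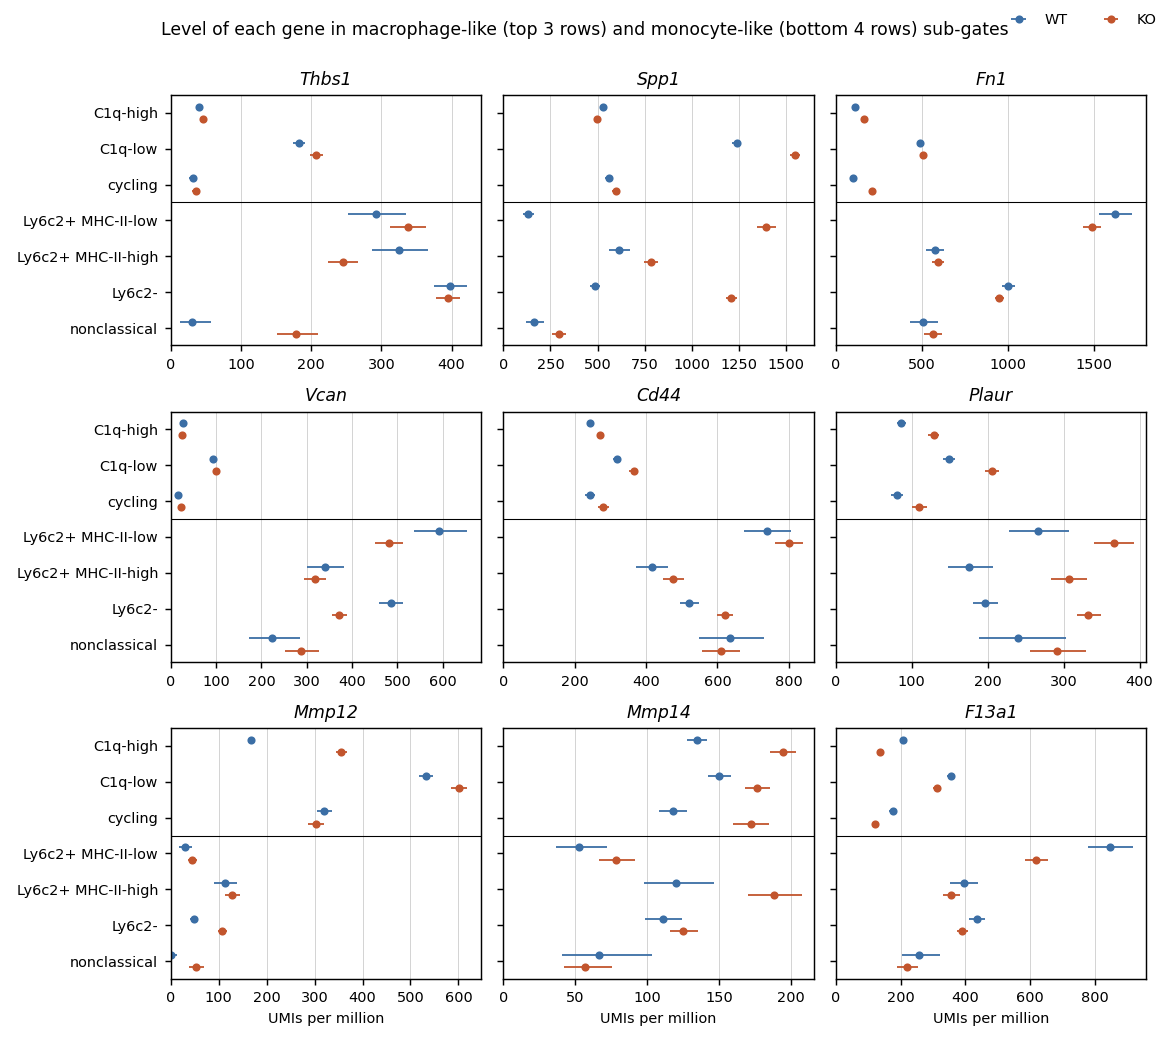
Level of each gene in CPM (x axis, linear, from 0) in C1q-high, C1q-low and cycling macrophage-like cells, of which cycling cells overlap the others, and in 4 monocyte-like sub-gates (y axis) for WT (blue) and KO (orange); bars are 95% Poisson intervals. C1q-low cells lie to the right of C1q-high cells for every gene but Mmp14 in KO, and the widest Spp1 gap between the libraries is that in Ly6c2+ MHC-II-low cells, 131 against 1394, whose cells sat in different clusters in the 2 libraries.

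Clusters built without the 9 genes gave the same levels another frame. Monocyte-like cells that fell into the macrophage cluster with Inhba and Nos2 among its leading genes made up 3.51% of the WT and 9.39% of the KO monocyte gate, and read 2044 and 3212 CPM of Spp1. In the monocyte cluster with Vcan and Chil3 among its leading genes, monocyte-like cells read 254 and 486 of Spp1, a ratio of 0.93 (0.71 to 1.16), and in the cluster led by interferon-induced genes 542 and 1294, a ratio of 1.25 (1.07 to 1.44). In the cluster led by Ace and Adgre4, nonclassical monocyte genes, it read 31.5 and 78.7. Spp1 was therefore higher in KO within each of the 3 monocyte clusters, while the monocyte-like cells of the cDC2 cluster went the other way, at 98.2 and 29.2. Thbs1 in the monocyte gate was lower in KO in 7 of 8 clusters, with an interval that reached above 0 in the cDC2 cluster. It read 1951 and 1327 in the Inhba and Nos2 cluster (-0.56), which held a larger share of the gate in KO than in WT, 621 and 330 in the cluster with Vcan and Chil3 (-0.91) and 448 and 203 in the cluster led by Ccl24 and Fn1 (-1.14). In the interferon gene cluster it read 277 and 301 (0.12, -0.16 to 0.40). Mmp14 in the monocyte gate, at 0.29 over the whole gate, went both ways. It stood at -0.53 in the Ace and Adgre4 cluster, -0.08 in the Vcan and Chil3 cluster and -0.22 in the interferon gene cluster. The intervals of these ratios held 0. It stood at -2.37 (-3.22 to -1.59) in the Lyve1 cluster and -0.64 (-1.55 to 0.27) in the cDC2 cluster. It was higher in KO in the Inhba and Nos2 cluster (0.78), the Ccl24 and Fn1 cluster (0.32) and an unnamed cluster (0.43). Restricting the monocyte gate to the 3 monocyte clusters, an alternative chosen after seeing the data, gave a ratio of 1.66 for Spp1 and 0.72 for Plaur.

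Macrophage-like cells of the same clusters gave Plaur ratios of 0.43 in the cluster led by Ch25h and Vcam1, 0.16 in the Inhba and Nos2 cluster, 0.48 in the cluster led by Ccl24 and Fn1, 0.44 in the cycling cluster and 0.55 in the Lyve1 cluster. Plaur was higher in KO in all 5 clusters named macrophage-like, with the lower bound of the interval at 0.00 in the Inhba and Nos2 cluster, and it stood at -0.35 (-0.95 to 0.24) in 1 unnamed cluster. Spp1 in the same 5 clusters stood at 0.03, -0.36, 0.51, -0.32 and -0.32, so its direction was not shared between macrophage states. Nor was that of Mmp12, which stood at 0.95, 0.14, 0.25, -0.39 (-0.51 to -0.27) and 3.28 in these 5 clusters, the last from 12.7 to 123 CPM, and was lower in KO in the 3 remaining clusters of the gate, at ratios of -0.57 to -1.28. The Inhba and Nos2 cluster, where Mmp12 read 1672 and 1838, made up 13.3% of the WT and 19.2% of the KO macrophage gate. Thbs1 also went both ways in the 5 clusters named macrophage-like. In the same order it stood at -0.70 (-1.04 to -0.36), -0.33 (-0.45 to -0.21), 0.15 (-0.09 to 0.40), 0.04 (-0.35 to 0.42) and -0.33 (-0.84 to 0.18). In the remaining clusters of the gate it stood at 0.49 (0.11 to 0.89), -0.60 (-1.75 to 0.47) and -0.02 (-0.36 to 0.33).

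Other genes of the matrix system were read from 6 lists of 120 genes in macrophage-like cells, where 38 reached 50 CPM. Of these, 3 were higher in KO by the fold and 0 lower, and their median was 0.08, beside the 1.95% higher and 0.426% lower of all genes. The 3 were Mmp13, a collagenase, from 52.4 to 98.8 CPM (0.92), F10, coagulation factor X, from 65.0 to 129 (0.99), and F7, coagulation factor VII, from 39.7 to 65.6 (0.72). F7 reached the floor through the KO library alone. Gas6, a ligand of the TAM receptors, went the other way within the fold, from 120 to 87.1 (-0.46).

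Lists other than the metalloproteinases and the coagulation and crosslinking genes held no gene past the fold among those at 50 CPM or more. Among receptors and integrins (11 of 18 genes at the floor), Cd36, a receptor of thrombospondin, stood at 0.31, the heparan sulphate proteoglycan Sdc3 at 0.24 and the scavenger receptor Stab1 at -0.23. In the plasminogen system (5 of 11), the protease inhibitor Serpinb6a stood at -0.31 and the plasminogen-binding pair Anxa2 and S100a10 at 0.21 and 0.10, and Plau, the urokinase that PLAUR binds, read 100 and 107 CPM. Besides Mmp13, the metalloproteinase list (6 of 27) named Adam10 at -0.10 and Adam8 at 0.09. Of 9 inhibitors only Cst3 (-0.23) and Timp2 (-0.09) reached the floor. Among matricellular and matrix proteins (7 of 32), the galectins Lgals3 and Lgals1 stood at 0.26 and -0.18 and Emilin2 at 0.20.

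Across the 20 class and library levels, the genes whose profile was most like each member were listed by Pearson's r of log2 levels over 6191 genes. These 20 points share 2 libraries and differ in depth, so r is a description. Among the genes most like Plaur were Trib1 (0.95) and B430306N03Rik (0.94). Thbs1 was most like Pla2g7, C3 and Il1rn (0.95, 0.95 and 0.94), and F13a1 most like Ccl9, Fcgr1 and Ccl7 (0.95, 0.95 and 0.93). Vcan followed Ms4a6d, Esd and Cebpa (0.95, 0.93 and 0.92), Fn1 followed Ifit2, Hmox2 and Slc7a8 (0.93, 0.93 and 0.92), and Cd44 followed Hk2, Tmem189 and Carhsp1 (0.94, 0.91 and 0.91). The least close neighbours were those of Mmp14 (Plxnb2 0.89, Cep170 0.88, Guca1a 0.88), Spp1 (Fcgr4 0.87, Hk3 0.85, C5ar1 0.85) and Mmp12 (F7 0.85, Csf1r 0.85, Clec4n 0.84).

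**Figure D4:**
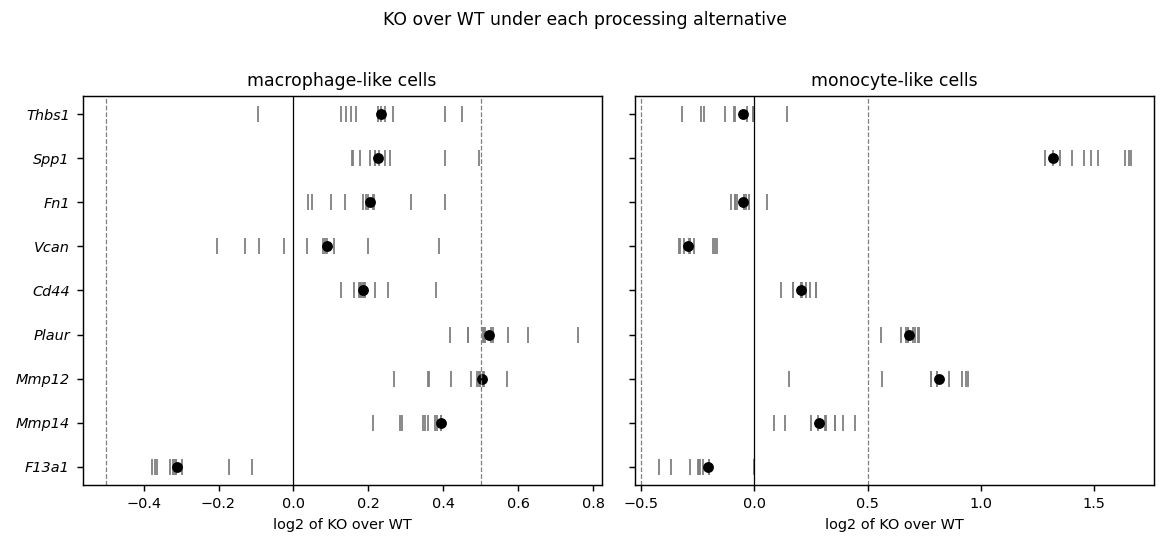
Log2 ratio of KO over WT (x axis) of each gene (y axis) in macrophage-like cells (left) and monocyte-like cells (right): the black point is the value given above and grey ticks are the values under the processing alternatives; dashed lines mark the fold of 0.5. Plaur stayed between 0.42 and 0.63 in macrophage-like cells, with its left-panel tick at 0.76 from both classes summed. Spp1 stayed between 1.28 and 1.66 in monocyte-like cells, and the ticks of Thbs1 and Vcan lie on both sides of 0 in macrophage-like cells.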

How the data were processed

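Live CD45+ cells of B16 tumours were profiled with 10x Genomics Chromium 3′ v3 chemistry, 1 pooled library per genotype. The authors aligned reads to mm10 with Cell Ranger (4.0.0 per the file headers) and deposited whole-number UMI counts of 31053 genes, not normalised, with a table giving each barcode's library. Cells with at least 200 genes and at most 10% mitochondrial UMIs were kept. Scrublet (scanpy 1.11.5) marked 1 cell per library by its own threshold and so did not work, and the highest scores were removed at 0.8% per 1000 cells (256 WT, 532 KO). Each cell took the class whose markers scored highest on average (log counts per 10000, scaled to the 90th percentile of cells with a UMI). Cells scoring under 0.2 or with another lineage at 0.5 of the best score or more were left out (302 and 440 cells, and 524 and 520). Classes of 50 cells or more in both libraries were reported, which left out plasmacytoid dendritic cells, plasma cells, mast cells and fibroblasts. Within each library the counts of a class were added up and expressed as CPM. Intervals are exact Poisson (levels), Clopper-Pearson (shares) and exact conditional (ratios), at 95%, for counting error only. Over all genes a pseudocount of 1 CPM was added. The ratio and its interval were tested on simulated data. Sub-gates used cells thinned to 1000 UMIs. Leiden clusters (2000 variable genes without the 9, 30 components) served as an alternative. Members, lists and markers were chosen with earlier results of these data known. The text names the 9 genes, in each list up to 3 genes at 50 CPM or more with the widest ratio, and the 3 genes most like each member. Plau and cluster-leading genes were named after their values were seen. A further split of macrophage-like cells and 1 gene similar to a member are not reported here.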

Additional observations from a re-analysis of the deposited data

How the results depend on the processing

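No paired analysis was possible because each genotype had 1 library. In macrophage-like cells 2 of the 9 genes were past the fold of 0.5. The count was 0 with a fold of 1, with equal weight for each cell and with equal weight for each sub-gate. It was 1 with cells thinned to 1000 UMIs, clusters named by the markers, cells clear of the gate border, doublets and mixed cells kept, a stricter filter on cells, median-of-ratios scaling or both classes summed. In monocyte-like cells the count of 3 fell to 1 with a fold of 1 and ranged from 2 to 3 under the others. Plaur kept its direction under every alternative run, from 0.42 to 0.63 in macrophage-like and from 0.56 to 0.73 in monocyte-like cells, and at 0.76 with both classes summed. So did Spp1, Cd44, Mmp12 and Mmp14 in both classes and F13a1 in macrophage-like cells. Within single clusters of the gates, however, Spp1, Mmp12 and Mmp14 went both ways, as given with the clusters. Thbs1 in macrophage-like cells ran from -0.09 with equal weight for each sub-gate to 0.45 with clusters, and Vcan from -0.20 with thinned cells to 0.39 with both classes summed, so neither direction is settled. Fn1 there ran from 0.04 with equal weight for each cell to 0.41 with both classes summed. Mmp12 in monocyte-like cells fell to 0.15 with clusters. For the other matrix genes the count of 3 became 0 with a fold of 1 and 5 with clusters. The number of genes with a higher share of macrophage-like cells in KO went from 3 to 7 with thinning, counts without a background over all genes. The restriction of gated cells to clusters of the same name, chosen after seeing the data, left both counts at 2 and 3. The cause of these shifts was not tested, apart from the fold of 1, which is stricter by construction. Depth limited the classes of few cells: in granulocyte-like KO cells 70 Thbs1 and 129 Plaur UMIs were counted.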

Other observations

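Several levels outside the macrophage and monocyte classes rested on single cells. Mmp12 in granulocyte-like cells read 23.9 CPM (UMIs per 1000000 UMIs) in WT and 329 in KO, but 71 of the 75 KO UMIs came from 1 cell, and without it the KO level was 17.9. Spp1 in mature dendritic cells read 364 in WT and 26.1 in KO, and 222 of the 234 WT UMIs came from 1 cell, without which the WT level was 19.2. In T-like cells of KO, 309 of 708 Spp1 UMIs came from 1 cell, and the level was 266 with it and 151 without it. Mmp12 in cDC1-like cells read 24.0 in WT and 123 in KO, with 15 of 42 and 121 of 197 UMIs in 1 cell, and 15.6 and 48.4 without those cells.

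Cell by cell, the 9 genes showed little joint variation in macrophage-like cells thinned to 1000 UMIs. The widest Pearson's r among the 36 pairs was that of Fn1 and Vcan, 0.30 in 1715 WT cells and 0.25 in 2091 KO cells, and most pairs were under 0.10, which in counts this sparse is no finding.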
